A study of Homo sapiens with 4 samples.

Results

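The genes described here were 8 long noncoding RNA (lncRNA) genes that have been studied for many years in nuclear organisation and in cancer, namely MALAT1, NEAT1, NORAD, TUG1, OIP5-AS1, PVT1, KCNQ1OT1 and H19. They were chosen by name, with earlier results of these data known, and all 8 were found among the 60558 Ensembl genes of each library. GENCODE release 44 gives the lncRNA type to 16672 of those genes and to 7 of the 8, since it lists TUG1 as protein-coding. The study asked which lncRNAs respond to active AKT signalling in lung adenocarcinoma (LAD) cells. RNA was sequenced from A549 and HCC827, established LAD cell lines, each carrying either an empty vector or a construct for myr-AKT1. The myr-AKT1 protein is AKT1 with an added myristoylation signal, which anchors the kinase at the membrane and keeps it active. The 4 libraries were thus a vector and a myr-AKT1 library of each line, 1 for each condition, so a difference within a line had no replicate check and no p-value. Neither the number of clones behind each transduced line nor the time since transduction was given in the sources used here.

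MALAT1 and NEAT1 are abundant nuclear RNAs transcribed from neighbouring genes. MALAT1 RNA gathers at nuclear speckles, which hold splicing factors, and NEAT1 RNA is the scaffold on which paraspeckles are built. NORAD is a cytoplasmic RNA that binds the RNA-binding protein PUM2, TUG1 and OIP5-AS1 are broadly expressed RNAs with reported roles in gene regulation, and PVT1 lies beside the MYC oncogene. H19 and KCNQ1OT1 belong to the imprinted cluster at 11p15.5, where H19 is expressed from the maternal and KCNQ1OT1 from the paternal chromosome.

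Values are normalized counts, meaning reads assigned to a gene divided by a size factor for the library, as the authors deposited them. The reads behind them numbered 33530317 for A549-vector and 25190760 for A549-myr-AKT1, and 27312465 for HCC827-vector and 16322183 for HCC827-myr-AKT1. AKT1 itself was higher with myr-AKT1 in both lines, by 0.57 on the log2 scale in A549 and by 1.14 in HCC827. The epithelial markers EPCAM, KRT8, KRT18, KRT19 and CDH1 were read in all libraries, and their log2 fold changes ran from -0.38 (KRT18) to 2.65 (KRT19) in A549 and from -1.81 (KRT8) to 0.31 (CDH1) in HCC827. Of the lung lineage markers, NKX2-1 and NAPSA were abundant in HCC827, with log2 fold changes of -0.84 each, whereas their summed level with SFTPB was only 41.9 to 43.5 in A549. The summed level of blood cell markers was 2.52 to 17.2, with CD3E at 0 in all libraries, and that of the endothelial markers PECAM1, CDH5 and VWF was 13.1 in A549-vector against 137 in A549-myr-AKT1, and 76.3 against 138 in HCC827. The fibroblast markers COL1A1, DCN and LUM summed to 99.6 in A549-vector against 1128 in A549-myr-AKT1, and to 49.3 against 184 in HCC827. The HCC827 difference rested on COL1A1 alone, at 44.5 with vector and 179 with myr-AKT1. There LUM had 1 read in each library, and DCN had 5 with vector and 3 with myr-AKT1. DCN had 0 reads in A549-vector, and the part of these markers in the results that follow was not tested.

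All values are from bulk RNA, where fewer cells with a transcript and less of it per cell cannot be told apart. Differences are given as log2 fold changes of myr-AKT1 over vector within a line, with a 95% Clopper-Pearson interval from the reads. These intervals cover counting error only, because reads without molecular identifiers are not independent molecules and each condition had 1 library.

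NEAT1 (ENSG00000245532; GRCh38, chromosome 11, 65422774 to 65445540, plus strand) showed the largest difference of the 8 genes in both lines. Its normalized count was 15135 in A549-vector and 93985 in A549-myr-AKT1. In HCC827 it was 24214 in the vector library and 127870 in the myr-AKT1 library. Both myr-AKT1 libraries therefore lay above both vector libraries, and the highest vector value stayed far below the lowest myr-AKT1 value. The level was 6.21-fold higher in A549-myr-AKT1 (log2 2.63, interval 2.61 to 2.66) and 5.28-fold higher in HCC827-myr-AKT1 (log2 2.40, interval 2.38 to 2.42). By number of reads, NEAT1 took place 229 among all genes in A549-vector and place 14 in A549-myr-AKT1, and place 61 and place 4 in the HCC827 pair.

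MALAT1 (ENSG00000251562; chromosome 11, 65497640 to 65508073, plus strand) was the most abundant of the 8 in every library. Its normalized count was 261451 in A549-vector and 551278 in A549-myr-AKT1, and 203767 in HCC827-vector and 324745 in HCC827-myr-AKT1. It held the first place by reads among all genes in 3 libraries and place 2 in A549-vector. With myr-AKT1 it was 2.11-fold higher in A549 (log2 1.08, interval 1.07 to 1.08) and 1.59-fold higher in HCC827 (log2 0.67, interval 0.66 to 0.68), so the MALAT1 difference was smaller than that of NEAT1 in each line. ENSG00000270117, which lies on the opposite strand inside MALAT1, had normalized counts of only 0.795 to 8.02.

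The genomic sequences where the long NEAT1 transcript and MALAT1 end are shown because they are the feature that sets these 2 RNAs apart from polyadenylated lncRNAs. Each ends just before a small tRNA-like RNA that is cut away, and the end is protected by U-rich stretches that pair with an A-rich stretch. The annotation places a small RNA of 58 bases directly after the NEAT1 window (65445541 to 65445598) and one of 57 bases directly after the MALAT1 window (65506117 to 65506173). The 150 bases before each, at chr11:65445391-65445540 and chr11:65505967-65506116 of GRCh38, both plus strand, read as follows, where capitals mark matches to TTTGCTTTT, TTTTCTTTT and AAAAGCAAA.
NEAT1: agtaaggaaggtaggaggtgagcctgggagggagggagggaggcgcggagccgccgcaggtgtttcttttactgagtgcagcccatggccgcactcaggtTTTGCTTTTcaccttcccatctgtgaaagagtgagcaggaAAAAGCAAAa
MALAT1: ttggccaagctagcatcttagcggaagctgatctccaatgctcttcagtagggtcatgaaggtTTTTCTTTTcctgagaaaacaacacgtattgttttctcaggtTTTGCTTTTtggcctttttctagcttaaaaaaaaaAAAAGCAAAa
Both windows hold TTTGCTTTT once and AAAAGCAAA once. MALAT1 also holds TTTTCTTTT, and NEAT1 holds tttctttt, 1 base short of that string and so left unmarked. Searched on the transcribed strand, the last 150 bases of the longest transcript of 18816 lncRNA genes held TTTGCTTTT in 0.399%, AAAAGCAAA in 0.457% and TTTTCTTTT in 1.02%. The U-rich TTTGCTTTT and the A-rich motif occurred together in 1 of these ends (0.00531%), that of NEAT1, since the longest annotated MALAT1 transcript runs on past its small RNA.

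The other 6 genes differed less or rested on few reads. NORAD (ENSG00000260032; chromosome 20, 36045618 to 36051018, minus strand, 1 exon) had a normalized count of 8864 in A549-vector and 11971 in A549-myr-AKT1, and of 10044 in HCC827-vector and 10818 in HCC827-myr-AKT1. Its log2 fold change was 0.43 (interval 0.39 to 0.47) in A549 and 0.11 (interval 0.07 to 0.15) in HCC827. TUG1 (ENSG00000253352; chromosome 22, 30969245 to 30979395, plus strand) was much like it, with 6122 in A549-vector and 8292 in A549-myr-AKT1, and 6339 in HCC827-vector and 6719 in HCC827-myr-AKT1. Its log2 fold change was 0.44 (interval 0.39 to 0.49) in A549 and 0.08 (interval 0.03 to 0.13) in HCC827.

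OIP5-AS1 (ENSG00000247556; chromosome 15, 41283958 to 41322392, plus strand) had a normalized count of 7342 in A549-vector and 8500 in A549-myr-AKT1, and of 1580 in the vector and 2137 in the myr-AKT1 library of HCC827. Here the cell line set the values apart more than myr-AKT1 did. The log2 fold change was 0.21 (interval 0.17 to 0.26) in A549 and 0.44 (interval 0.34 to 0.53) in HCC827. OIP5-AS1 overlaps OIP5 on the opposite strand and NUSAP1 on its own strand, so reads in the stretch shared with NUSAP1 could not be given to either by strand.

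PVT1 (ENSG00000249859; chromosome 8, 127794526 to 128187101, plus strand) had normalized counts of 4552 in A549-vector and 3388 in A549-myr-AKT1, and of 2960 in HCC827-vector and 2965 in HCC827-myr-AKT1. It was lower in A549-myr-AKT1 (log2 -0.43, interval -0.49 to -0.36), and in HCC827 the interval of its log2 fold change included 0 (-0.07 to 0.08). MYC, its neighbour, was at 5331 in A549-vector and 1595 in A549-myr-AKT1 (log2 -1.74), and at 4302 in HCC827-vector and 3741 in HCC827-myr-AKT1 (log2 -0.20).

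KCNQ1OT1 (ENSG00000269821; chromosome 11, 2597308 to 2700003, minus strand) lies inside KCNQ1 on the opposite strand. Its normalized count was 3090 in A549-vector and 4785 in A549-myr-AKT1, a log2 fold change of 0.63 (interval 0.57 to 0.70). In HCC827 no read was assigned to it in either library, where 3 reads, the limit that a count of 0 allows, would be a normalized count of 2.38 in the vector and 3.77 in the myr-AKT1 library. Set against that floor per library, scaled across the 4 libraries together, the level was at least 972.5-fold higher for A549-vector over HCC827-vector and at least 987-fold higher for A549-myr-AKT1 over HCC827-myr-AKT1. KCNQ1 itself had 22 reads in A549-vector, 50 in A549-myr-AKT1 and 1 in each HCC827 library.

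H19 (ENSG00000130600; chromosome 11, 1995166 to 2004552, minus strand) had the fewest reads of the 8 in A549, with 191 reads (normalized count 167) in A549-vector and 62 reads (71.0) in A549-myr-AKT1. It was 2.35-fold lower with myr-AKT1 there (log2 -1.23, interval -1.67 to -0.81). HCC827-vector held 17 reads (13.5) and HCC827-myr-AKT1 13 reads (16.4), and the interval of the log2 fold change ran from -0.89 to 1.40. It included 0 but not the value seen in A549, and no direction could be detected in HCC827 at this depth. IGF2, the neighbour with which H19 shares its imprinting control, had 3 reads in A549-myr-AKT1 and 0 in the other libraries.

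**Figure D1:**
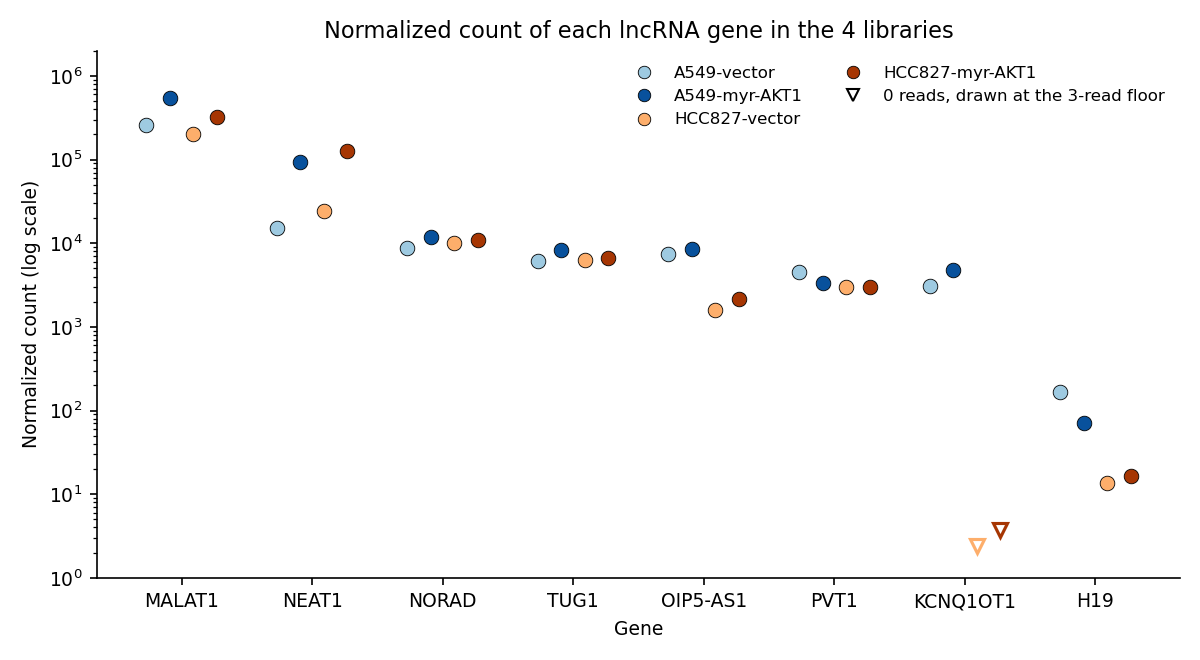
The plot shows the normalized count (log axis) of each of the 8 lncRNA genes in the 4 libraries, 1 point per library, with open triangles at the 3-read floor for libraries with 0 reads. The dark points (myr-AKT1) of NEAT1 lie far above the pale points (vector) in both lines, and KCNQ1OT1 has reads in A549 only.

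All 8 genes averaged a normalized count of 50 or more over the A549 pair, and 6 did so over the HCC827 pair, where KCNQ1OT1 and H19 did not. In A549, 2 of the 8 (MALAT1 and NEAT1) were over 2-fold higher with myr-AKT1, beside 11.2% of the 13965 genes that passed the same minimum and 13.3% of its 1157 lncRNA genes. H19 alone was over 2-fold lower there, beside 7.9% of genes. In HCC827, only NEAT1 of the 6 was over 2-fold higher, beside 10.2% of 13096 genes and 12.9% of 944 lncRNA genes, and 0 were over 2-fold lower, beside 10.3% of genes. At a log2 fold change of 2, the threshold the study used, NEAT1 alone remained in both lines, beside 3.76% of genes in A549 and 2.69% in HCC827. The median log2 fold change of the members was 0.44 in A549 and 0.27 in HCC827, where the median of all genes was -0.07 and -0.06.

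The places of NEAT1 and MALAT1 among abundant lncRNA genes were also counted. Of the 62 lncRNA genes averaging a normalized count of 1000 or more in A549, NEAT1 had the highest log2 fold change and MALAT1 the place 8. Of the 43 such genes in HCC827, NEAT1 took place 2 and MALAT1 place 6. Among all genes above the lower minimum, 2.18% in A549 and 1.79% in HCC827 had a higher log2 fold change than NEAT1, and 10.3% and 17.0% had a higher one than MALAT1. NORAD and TUG1 lay near the upper quartile of all genes in A549 (0.41) and near the middle of the distribution in HCC827.

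**Figure D2:**
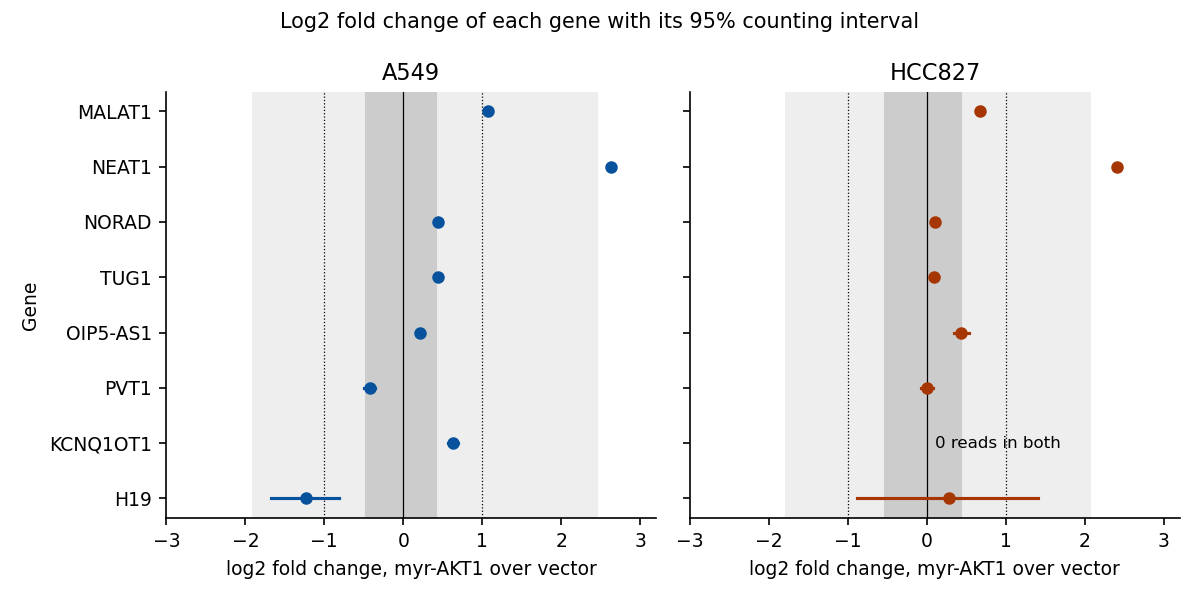
Points give the log2 fold change of myr-AKT1 over vector for each gene in A549 (left) and HCC827 (right), lines its 95% counting interval, dark and light grey bands the middle 50% and 95% of all genes averaging a normalized count of 50 or more, and dotted lines a 2-fold change. NEAT1 (2.63 and 2.40) lies outside the light band in both lines, and the interval of H19 in HCC827 spans 0.

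Over both lines, the contrast of myr-AKT1 with vector was tested with limma on log2(normalized count + 1) across 19314 genes with the cell line as a block, so that each line served as a repeat of the other. NEAT1 rose by 2.52 on this scale (SE 0.30, limma adjusted p = 0.00959), being higher in 2 of 2 lines, and was the only one of the 8 genes past an adjusted p of 0.05, beside 3.03% of all genes tested. MALAT1 was 0.87 higher (SE 0.44) with a limma adjusted p of 0.347. The limma adjusted p of the other 6 lay between 0.541 and 0.827. The fit had 1 residual degree of freedom, and the NEAT1 call was lost in edgeR's quasi-likelihood test with DESeq2 size factors (adjusted p = 0.0525) and with a pseudocount of 0.1 (limma adjusted p = 0.0669). In DESeq2's Wald test both NEAT1 (adjusted p = 9.32e-19) and MALAT1 (adjusted p = 0.0167) passed.

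In these 4 libraries the size of the log2 fold change was not the same in both lines. Subtracting the HCC827 from the A549 log2 fold change gave 0.23 for NEAT1 (interval 0.20 to 0.26), 0.40 for MALAT1 (0.39 to 0.41), 0.33 for NORAD (0.27 to 0.38) and 0.35 for TUG1 (0.28 to 0.42). These 4 genes thus differed more in A549, whereas OIP5-AS1 differed more in HCC827 (-0.22, interval -0.33 to -0.12). The difference was -0.43 for PVT1 (interval -0.53 to -0.33) and -1.51 for H19 (interval -2.63 to -0.39). None of these intervals included 0, but they hold counting error alone, and with 1 library per condition the spread between cultures is unknown. They also leave out the choice of size factors. With size factors across both lines together, the difference was 0.29 for NEAT1 and 0.46 for MALAT1, outside the intervals above.

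MALAT1 and NEAT1 together made up 0.945% of reads in A549-vector and 2.24% in A549-myr-AKT1, and 1.05% in HCC827-vector and 2.20% in HCC827-myr-AKT1. The share of reads on all lncRNA genes was 2.38% and 3.81% in the A549 pair and 2.67% and 3.85% in the HCC827 pair. Without MALAT1 and NEAT1, the lncRNA share was 1.44% in A549-vector and 1.57% in A549-myr-AKT1, and 1.62% in HCC827-vector and 1.65% in HCC827-myr-AKT1. Most of the gap between the lncRNA shares of vector and myr-AKT1 libraries was thus made up by this pair of genes.

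**Figure D3:**
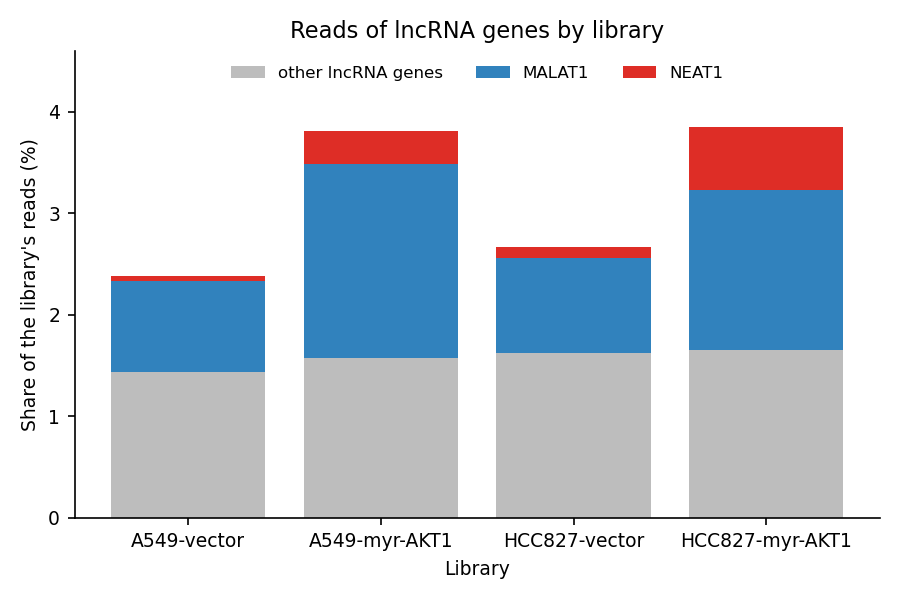
Bars give the share of each library's reads (%) on lncRNA genes, split into MALAT1 (blue), NEAT1 (red) and all other lncRNA genes (grey). The grey part is 1.44% to 1.65% in all 4 libraries, while MALAT1 and NEAT1 together take 0.945% to 1.05% in the vector and 2.20% to 2.24% in the myr-AKT1 libraries.

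Levels of different genes were compared as RPKM, here the recovered reads per kb of merged exons and per 1000000 reads of the library. On this scale MALAT1 was at 856 and 1832 in the A549 pair and at 900 and 1515 in the HCC827 pair, vector first, above all other members. NEAT1 was at 22.7 and 143 in the A549 pair and at 49.0 and 273 in the HCC827 pair. NORAD was at 56.0 and 76.8 in the A549 pair and at 85.7 and 97.5 in the HCC827 pair. With these lengths, NEAT1 was below NORAD in both vector libraries and above it in both myr-AKT1 libraries. The ratio of MALAT1 to NEAT1 per length was 37.7 and 12.8 in the A549 pair and 18.4 and 5.54 in the HCC827 pair. The annotation gives NEAT1 9 transcripts, and its merged exons span 22767 bases. Counts per gene do not tell these transcripts apart, and a shorter length would raise NEAT1 against NORAD and MALAT1. TUG1 ranged from 20.6 to 32.2 and OIP5-AS1 from 3.25 to 13.2. PVT1 ranged from 4.62 to 6.11, KCNQ1OT1 from 0 to 1.79 and H19 from 0.180 to 1.65. In A549-vector NEAT1 (22.7) and TUG1 (20.6) were close neighbours in this order, as were PVT1 and OIP5-AS1 in HCC827, and no replicate spread exists against which to set such gaps. The place of PVT1 depends on which length is used: with its longest transcript (2450 bases) in place of merged exons (25431 bases), PVT1 came to 47.9 to 63.5.

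Between the lines, scaled across the 4 libraries together, MALAT1 was within 1.04-fold in the vector libraries and 1.32-fold higher for A549 in the myr-AKT1 libraries. NORAD was 1.51-fold and TUG1 1.38-fold higher for HCC827 over A549 with vector, and 1.16-fold and 1.04-fold higher with myr-AKT1. NEAT1 was 2.13-fold higher for HCC827 over A549 with vector and 1.75-fold higher with myr-AKT1. OIP5-AS1 was 3.49-fold higher in A549-vector and H19 9.26-fold higher there. Thus the gap between the vector libraries of the lines exceeded the larger difference with myr-AKT1 for KCNQ1OT1, H19, OIP5-AS1 and NORAD, while for NEAT1 and MALAT1 it was smaller.

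NORAD is shown in sequence because its known partner PUM2 binds the motif TGTANATA, of which it holds many copies. Read on the transcribed strand, NORAD held 15 copies in 5401 bases, 2.78 per kb, where the longest transcripts of 8988 lncRNA genes with 1000 bases or more held 0.112 per kb. At least 1 copy was found in 19.6% of those transcripts, and 15 or more in 6 of them (0.0668%). Of the other members, KCNQ1OT1 held 9, NEAT1 6, TUG1 2 and OIP5-AS1 1, and MALAT1, H19 and PVT1 held 0. In 3 places NORAD copies stood 9 bases apart from start to start. These are printed 5′ to 3′ on the minus strand of GRCh38, with the copies in capitals, from chr20:36049476-36049545, chr20:36048279-36048348 and chr20:36047643-36047712.
NORAD pair 1: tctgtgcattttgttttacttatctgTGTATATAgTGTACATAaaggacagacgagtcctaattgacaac
NORAD pair 2: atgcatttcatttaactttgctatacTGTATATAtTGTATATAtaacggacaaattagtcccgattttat
NORAD pair 3: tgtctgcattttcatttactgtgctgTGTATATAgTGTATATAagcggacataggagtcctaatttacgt
A match is a stretch of letters, and binding was not measured. The PUM2 gene was at log2 -0.53 in A549 and -0.26 in HCC827. RBMX, another NORAD partner, was at -0.94 and -1.35, and KHDRBS1 at -0.46 and -0.67. None of the 4 partner genes listed was over 2-fold different in A549, beside 11.2% of all genes higher and 7.9% lower. In HCC827, RBMX alone was over 2-fold lower and 0 were higher, beside 10.3% and 10.2% of all genes.

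Genes of paraspeckle proteins, the partners of NEAT1, mostly had negative log2 fold changes. All 14 genes passed the minimum, and their log2 fold changes lay below 0 for 14 of 14 in A549 and for 12 of 14 in HCC827, with medians of -0.63 and -0.64, whereas 45.6% of all genes in A549 and 46.2% in HCC827 lay above 0. Only 1 of the 14 in each line was over 2-fold lower, beside 7.9% of all genes in A549 and 10.3% in HCC827. Over 2-fold higher were 0, beside 11.2% and 10.2% of all genes. HNRNPA1, an RNA-binding protein of paraspeckles, was at 35615 in A549-vector and 18588 in A549-myr-AKT1 (log2 -0.94) and at 22847 in HCC827-vector and 8375 in HCC827-myr-AKT1 (log2 -1.45). DAZAP1 was at log2 -1.06 and -0.26, HNRNPK, which acts in the making of the long NEAT1 transcript, at -0.61 and -0.96, and NONO, a core paraspeckle protein, at -0.57 and -0.89. When size factors were estimated across both lines together, the A549 values of all genes moved up by 0.10, the A549 median of this list was -0.53 and all 14 stayed below 0, with 0 over 2-fold lower.

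Genes of nuclear speckle proteins, which share the compartment of MALAT1, also mostly had negative log2 fold changes. All 13 passed the minimum, and 11 lay below 0 in A549 and 9 in HCC827. In A549, 2 of 13 were over 2-fold lower and 0 higher (median log2 -0.48), beside 7.9% and 11.2% of all genes. In HCC827, 5 were over 2-fold lower and 1 higher (median -0.69), beside 10.3% and 10.2%. Estimated across both lines together, the size factors left 0 of the 13 over 2-fold lower in A549. The SR proteins SRSF1 and SRSF2, which bind exons during splicing, were at log2 -0.86 and -1.05 in A549 and at -1.21 and -2.01 in HCC827. TRA2B, a related splicing activator, was at -0.97 and -1.27. SRRM2, which builds the speckle itself, was at -0.12 in A549 and 1.33 in HCC827.

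At 11p15.5, only 6 of the 12 imprinted or neighbouring genes in A549 and 7 in HCC827 passed the minimum. In A549, 2 of these were over 2-fold higher and 0 lower, beside 11.2% and 7.9% of all genes. In HCC827, 1 was higher and 0 lower, beside 10.2% and 10.3%. SLC22A18, a transporter gene of the KCNQ1OT1 domain, was at log2 1.19 and 0.62, and its antisense partner SLC22A18AS was at 62.9 in A549-vector, 126 in A549-myr-AKT1 and log2 -0.75 in HCC827. CDKN1C, a cell cycle inhibitor gene, was below the minimum in A549 and at 1.70 in HCC827, on 38 and 78 reads. NAP1L4 was at -0.47 and -0.50, and the median of the list was 0.71 in A549 and -0.12 in HCC827.

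**Figure D4:**
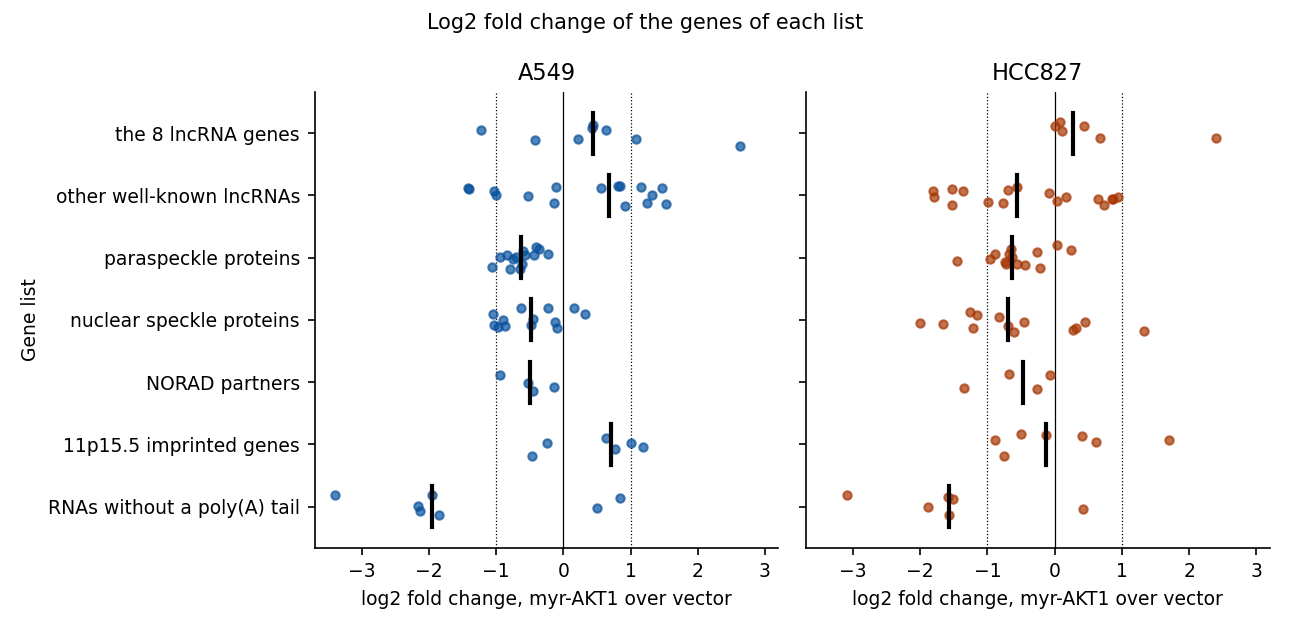
Each point is a gene averaging a normalized count of 50 or more in the line (A549 left, HCC827 right), placed by its log2 fold change of myr-AKT1 over vector within its gene list, with black bars for list medians and dotted lines at a 2-fold change. Paraspeckle protein genes have medians of -0.63 and -0.64, and the 8 lncRNA genes 0.44 and 0.27.

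Among genes averaging a normalized count of 50 or more, none near NEAT1 reached its log2 fold change. Within 250 kb of NEAT1, 18 genes passed the minimum in A549, with a median log2 fold change of -0.02. Of these, 2 were over 2-fold higher and 2 lower, beside 11.2% and 7.9% of all genes. The 2 higher ones were LTBP3 and MALAT1 (log2 1.08), itself 1 of the 8 members. In HCC827, 16 passed, with 1 higher, 0 lower and a median of 0.24, beside 10.2% higher and 10.3% lower of all genes. The nearest coding gene before NEAT1, FRMD8, was at log2 -0.58 and -0.57. LTBP3, which encodes a binding protein of latent TGF-β, was at 1.62 and 0.78. POLA2, a DNA polymerase subunit gene, was at -2.55 and -0.84.

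**Figure D5:**
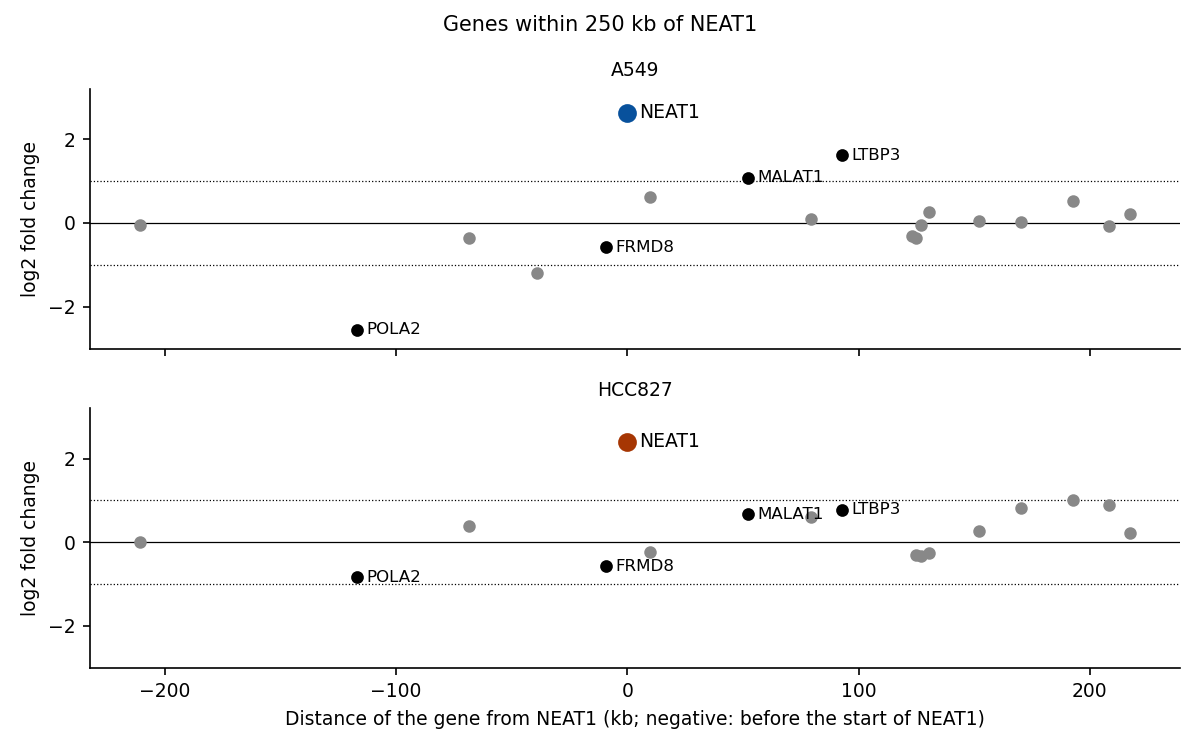
Genes within 250 kb of NEAT1 that averaged a normalized count of 50 or more are placed by their distance from NEAT1 (kb, 0 at NEAT1) and their log2 fold change of myr-AKT1 over vector in A549 (top) and HCC827 (bottom), with dotted lines at a 2-fold change. NEAT1 (coloured) stands above all of these neighbours in both lines, where the highest other value is 1.62 in A549 and 1.02 in HCC827.

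Of 10 genes listed by hand as lying at or near a member, 1 was over 2-fold higher and 2 were lower in A549. The shares of all genes there were 11.2% and 7.9%. In HCC827, 1 was higher and 1 lower, beside 10.2% and 10.3% of all genes. The list was not complete, since NUSAP1, which overlaps OIP5-AS1 and was at log2 -1.58 in A549 and -0.73 in HCC827, was not on it, and RBM39, which was, lies more than 250 kb from NORAD. OIP5, a centromere protein gene antisense to OIP5-AS1, was at 322 in A549-vector and 45.8 in A549-myr-AKT1 (log2 -2.81) and at 203 in HCC827-vector and 66.7 in HCC827-myr-AKT1 (log2 -1.61), where OIP5-AS1 was higher in both lines. EPB41L1, the neighbour of NORAD, was at 0.13 in A549 and 1.69 in HCC827. With MYC and LTBP3, these were the genes of the list past a 2-fold change in either line.

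Other well-known lncRNAs lay on both sides of 0. Of 26 such genes, 25 were found in the files and 3 were listed at 0 in all libraries. In A549, 16 passed the minimum, of which 5 were over 2-fold higher and 4 lower (median log2 0.68), beside 11.2% and 7.9% of all genes. In HCC827, 17 passed, of which 0 were higher and 5 lower (median -0.56), beside 10.2% and 10.3%. With size factors across both lines together, the A549 counts were 6 higher and 2 lower. LUCAT1, named for its association with lung cancer, was at log2 1.15 in A549 and -0.99 in HCC827, and MIR31HG, the host gene of a microRNA, at 1.33 and -1.53. DANCR was at -1.01 and -1.36 and CYTOR at -1.41 and -1.53.

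Genes of RNAs usually made without a poly(A) tail were also looked up. Reads per gene do not show whether an RNA had a tail, so these counts do not settle how the libraries were made. Of 12 such genes, 5 were listed at 0 in all libraries, and 7 passed the minimum in A549 and 6 in HCC827. The 5 replication-dependent histone genes were over 2-fold lower with myr-AKT1 in both lines, beside 7.9% of all genes in A549 and 10.3% in HCC827. Among them were H1-4 at log2 -2.16 in A549 and -1.52 in HCC827, and H3C2 at -3.39 and -3.09. The median of the list was -1.96 in A549 and -1.58 in HCC827. RN7SL1, the RNA of the signal recognition particle, took 0.639% of reads in A549-vector and 0.917% in A549-myr-AKT1, and 0.589% in HCC827-vector and 0.832% in HCC827-myr-AKT1. RN7SL1 and the lncRNA share were thus both higher, and the histone genes lower, in the myr-AKT1 libraries, and their part in the MALAT1 and NEAT1 differences was not tested.

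The genes whose pattern over the 4 libraries was nearest to each member were sought among 10137 genes with at least 100 reads in every library, by the distance between centred log2 values. CORO2A (distance 0.32) and SLC2A12 (distance 0.59) were nearest to NEAT1, where the median distance of all genes was 2.89 and 1 gene lay within 0.5. For MALAT1 they were SLC22A18 and CD59, and 233 genes lay within 0.5. For NORAD they were MMUT and LINC01719 (1114 within 0.5), for TUG1 FBXL8 and ANKRD20A5P (1207), for OIP5-AS1 THRA and TAF3 (112) and for PVT1 LYPLA1 and BRPF1 (2096). The pattern of NEAT1 thus had few near matches and that of PVT1 many. This distance grows with the size of a gene's own differences, so these counts are not a separate result. These are descriptions over 4 libraries.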

How the data were processed

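RNA from the 4 cell populations was sequenced as strand-specific libraries. The labels name ribosomal RNA depletion and the study's methods name poly(A) selection, which was not settled here and bears on RNAs without a poly(A) tail. Per the methods and the submitters' processing notes, the authors trimmed and masked reads, mapped them to hg38 with Bowtie2, which does not split reads over introns and so can miss reads at exon junctions of spliced members, and counted them per Ensembl gene with HTSeq. The strand setting and annotation release are not given in the sources used here. The methods name RPKM, but the deposited signal of each gene was a read count divided by a size factor of the library (0.795 to 1.26), set within the pair of a cell line. Reads were recovered by dividing by the value of 1 read. All values were whole within 0.001 except 1 in each vector library (99.996% whole).

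Of 60558 identifiers, 60261 matched GENCODE release 44 on GRCh38, which also gave the sequences, with the genome. Members and gene lists were chosen with earlier results of these data known, so no list serves as independent evidence. Named genes were the 8 members, AKT1, at most 4 examples per list (the highest mean normalized count among those past a 2-fold change, then the rest) and the 2 nearest patterns of each member with at least 50 reads in all libraries. FRMD8, POLA2, KCNQ1, IGF2, NUSAP1 and ENSG00000270117 were named beyond this rule, after their values were seen, as were MEG3 and SNRPN. Some items are not reported here.

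No test was made within a line, with 1 library per condition. The fit over both lines used limma 3.58.1 (log2(value + 1), trend, edgeR 4.0.16 filterByExpr) in R 4.3.3 with Benjamini-Hochberg adjustment. edgeR and DESeq2 1.42.0 on the recovered reads, other normalizations, pseudocounts, filters and lengths were alternatives. Simulated counts (19899 genes in the fit over both lines) gave each changed gene the same change in both lines, a log2 fold change of 2 up or down. All genes had the same spread setting. Measured differences were not the same in both lines, so the figures do not give the error rates of the real fit. On these counts, limma recovered 179 of 200 changed genes with 42 false calls, edgeR 181 with 6 and DESeq2 160 with 145. For the 2-fold threshold, 158 of 158 changed genes were found in simulated A549 pairs with 32 false calls among 13930 genes, and 151 of 151 in simulated HCC827 pairs with 29 among 13093.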

Additional observations from a re-analysis of the deposited data

Results flagged for a closer look

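The log2 fold changes of H19 and PVT1 lay on different sides of 0 in A549 and HCC827, but in HCC827 the interval of each included 0. No difference in direction was thus shown, and none was tested because each condition had 1 library. The log2 fold change of H19 was -1.23 in A549 and 0.28 in HCC827, where its 13 and 17 reads gave an interval that included 0. PVT1 was at -0.43 in A549 and 0.0021 in HCC827, and the latter was -0.01 with TMM factors.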

How the results depend on the processing

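The fit over both lines paired vector with myr-AKT1 by cell line. The labels carry no replicate numbers to pair by, and with 1 library per condition no replicate could be left out. Under other normalizations or a pseudocount of 1, the log2 fold change ran from 2.63 to 2.74 for NEAT1 and from 1.08 to 1.18 for MALAT1 in A549, and from 2.39 to 2.48 and from 0.66 to 0.75 in HCC827. No called value changed sign. The number of members past a 2-fold change in A549 was 3, and 1 at a log2 threshold of 2. The fit over both lines called 1 member. It called 0 with edgeR and DESeq2 size factors, 0 with a pseudocount of 0.1 and 0 without the cell line block, and 2 with DESeq2 and 2 without the filter on low counts. Over these alternatives the NEAT1 adjusted p ran from 1.37e-25 to 1, and the cause was not tested. All genes called were 585 with limma (250 higher), 99 with edgeR and DESeq2 size factors (42 higher), 1139 with DESeq2 (621 higher) and 1995 without the filter (1101 higher). With a pseudocount of 0.1 limma called 0, with 3184 genes under an unadjusted p of 0.05, and without the block it called 0, with 631. With the longest transcript as length, 3 of the 8 members kept their place in the per-length order in all 4 libraries. Depth limits H19 in HCC827.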

Other observations

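KCNQ1OT1 was not alone in being read in A549 and listed at 0 in HCC827. Of 5140 genes with a normalized count of at least 1000 in both A549 libraries, 31 (0.603%) had 0 reads in both HCC827 libraries, and KCNQ1OT1 was 1 of 2 lncRNA genes among them. SNRPN, an imprinted gene of another cluster that encodes a splicing protein, was at 2994 in A549-vector and 3589 in A549-myr-AKT1 and at 0 in both HCC827 libraries. MEG3, a maternally expressed imprinted lncRNA, was at 671 in A549-vector and 1201 in A549-myr-AKT1, and likewise at 0 in HCC827. MEG3 was below 1000 in A549-vector and so was not among the 31. SNRPN and MEG3 were named after their values were seen, and the rest of the 31 were not described. At 11p15.5, 7 of the 12 genes listed averaged a normalized count of 50 or more in HCC827. Whether imprinting bore on the values of 0 was not tested. In the opposite direction, 6 of 4189 genes with at least 1000 in both HCC827 libraries were at 0 in both A549 libraries.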
